A study of Mus musculus with 6 samples.

Results

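C-type lectin receptors were read on arrays of bone marrow-derived macrophages, as all genes whose single symbol begins with Clec or Cd209, together with Mrc1, Mrc2, Mgl2, Ly75, Klra2 and Klrb1b. The rule used gene names and no measured value, and this set of genes was taken up with earlier results of these data known. It took 54 of 45037 probe sets (groups of short array probes for one transcript), which stand for 38 of 20967 genes. 1 further probe set carries the symbols of both Clec4a2 and Clec4b1 and was not counted.

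The cells came from miR-155 KO mice (allele Mir155tm1.1Rsky, C57BL/6J background), and every group described here lacks miR-155. Marrow was grown with L929 supernatant as the source of macrophage colony stimulating factor and replated on day 7 without it. For 24 hours the cells then received medium alone (KO M0), LPS + IFN-γ (KO M1, 100 ng/ml LPS and 20 ng/ml IFN-γ by the sample labels, although the study's methods give another LPS dose) or 20 ng/ml IL-4 (KO M2), with 2 arrays in each condition, 6 in all. The sample titles number each pair as KO1 and KO2, biological replicates, here replicate 1 and replicate 2, and do not state whether equal numbers are 1 animal. Ages of the mice were not given in the sources used here, and wild-type arrays are not analysed here, so no value below shows what miR-155 itself does.

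A C-type lectin receptor carries a domain that in its classic form binds sugars with the help of calcium, and macrophages use these receptors to recognise fungi, mycobacteria, parasites and altered self. The endocytic members, such as the mannose receptor, carry glycoproteins into the cell. The activating members signal through an immunoreceptor tyrosine-based activation motif, either their own or that of the adaptors Fcer1g and Tyrobp, to the kinase Syk and on to NF-κB, while the inhibitory members recruit the phosphatases Ptpn6 and Ptpn11. LPS + IFN-γ is the classical and IL-4 the alternative stimulus in macrophage cultures, and Mrc1, Clec10a and Mgl2 are textbook markers of the latter.

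4 of the genes with large differences are introduced by their promoters, because STAT6 carries the IL-4 signal and NF-κB and AP-1 factors act after LPS. Each window holds 250 bases before to 50 bases after the start site, 5′ to 3′ on the gene's strand, from RefSeq (GRCm38.p6). Capitals mark a STAT6-type motif, and windows with none of the motifs searched are all in lower case.
Mrc1, chr2:14229164-14229463, plus strand: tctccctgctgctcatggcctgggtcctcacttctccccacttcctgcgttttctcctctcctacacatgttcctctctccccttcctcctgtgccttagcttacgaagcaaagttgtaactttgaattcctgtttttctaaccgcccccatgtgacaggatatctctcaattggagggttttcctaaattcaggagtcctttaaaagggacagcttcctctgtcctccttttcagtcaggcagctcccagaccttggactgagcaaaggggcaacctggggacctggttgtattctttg
Mgl2, chr11:70130107-70130406, plus strand: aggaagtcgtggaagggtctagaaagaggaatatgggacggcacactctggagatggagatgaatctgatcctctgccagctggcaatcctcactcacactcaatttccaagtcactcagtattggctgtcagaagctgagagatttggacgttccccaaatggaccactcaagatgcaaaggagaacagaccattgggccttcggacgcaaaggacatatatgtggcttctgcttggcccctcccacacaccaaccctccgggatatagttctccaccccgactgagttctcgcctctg
Clec7a, chr6:129472730-129473029, minus strand: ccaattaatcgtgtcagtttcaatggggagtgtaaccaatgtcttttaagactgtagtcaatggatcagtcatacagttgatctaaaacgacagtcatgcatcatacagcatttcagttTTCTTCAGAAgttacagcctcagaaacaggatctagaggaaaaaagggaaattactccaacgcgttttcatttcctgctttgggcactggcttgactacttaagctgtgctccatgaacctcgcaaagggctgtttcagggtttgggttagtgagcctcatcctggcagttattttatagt
Clec4e, chr6:123289822-123290121, minus strand: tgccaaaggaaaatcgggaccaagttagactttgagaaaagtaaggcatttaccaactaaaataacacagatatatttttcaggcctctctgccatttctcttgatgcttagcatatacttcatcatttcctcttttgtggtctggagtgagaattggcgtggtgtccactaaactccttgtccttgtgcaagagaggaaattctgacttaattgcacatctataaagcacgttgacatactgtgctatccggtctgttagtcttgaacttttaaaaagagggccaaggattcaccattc
4 motifs were searched on both strands, namely TTCNNNNGAA (STAT6), TGANTCA (AP-1), GGGANNTTCC (NF-κB) and GAAANNGAAA (interferon response element). Clec7a holds TTCTTCAGAA with its first base at position -131 from the start site. The windows of Mrc1, Mgl2 and Clec4e hold none of the 4, which says only that these letters are not in these windows. A promoter was found for 33 of the 38 genes and for 9 of the 10 that passed the test in a comparison. The 33 genes have 37 listed promoters. STAT6-type letters stood in 4 of these 37 (of Clec5a, Clec7a and Cd209e), and in 6.95% of all 32851 promoters. AP-1 letters stood in 8 (Klra2 and Clec4a2 among them, 7.81% of all promoters), interferon response letters in 3 (Clec4b1, Clec4d and Clec2d, 3.44%), and NF-κB letters in 2 (Clec2l and Clec1b, 1.47%). These matches are a description of sequence and not of bound sites.

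The array values are RMA intensities, a background-corrected and quantile-normalized brightness on a linear scale. Median intensity was 37.91 to 40.82 over the 6 arrays, and 19 of the 38 genes had a mean intensity above the median probe set. The number of arrays, 2 for each condition, limits precision. The limma p-values rest on the spread between these replicates, drawn towards the spread of all probe sets. Of 8 measured macrophage markers all were above the median probe set, with Csf1r at 13936 to 15214 and Cd68 at 10641 to 14909 on the 6 arrays. KO M2 arrays had lower macrophage marker sums, at 60092 and 57279, than KO M0 arrays, at 76664 and 77926. In KO M2, 4 markers were lower (Cd14, Emr1, Fcgr1 and Mertk, against 3.06% of all genes). The KO M2 log2 differences of Csf1r (0.04), Itgam (-0.07), Cd68 (-0.14) and Lyz2 (-0.27) passed no test. KO M1 arrays reached 82194 and 84018, with 1 marker, Itgam, higher (against 3.79% of all genes). In cultures measured whole, fewer cells of a type and less RNA per cell cannot be told apart. The probe set for Mir155 read 9.33 to 10.8 on all arrays and its position against the deletion is not given, so it does not check the genotype. The log2 ratio of the 3′ to the 5′ probe set of Gapdh, a sign of RNA integrity, was -0.08 and -0.07 without stimulus, 0.09 and 0.15 with LPS + IFN-γ, and 0.20 and 0.11 with IL-4, and its part in the values was not tested. Log2 intensities of the 2 replicates correlated at 0.9962 without stimulus, 0.9921 with LPS + IFN-γ and 0.995 with IL-4, and the 2 KO M1 arrays differed over 2-fold at 433 probe sets, against 49 in KO M0 and 120 in KO M2.

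In KO M1 compared to KO M0 macrophages, the mannose receptor Mrc1, the galactose-type lectin Clec10a and the β-glucan receptor Clec7a fell by 10-fold or more, Clec4b1 and Clec5a fell less, and Clec4e and Klra2 rose. In KO M2 macrophages Mgl2, Clec10a and Mrc1 rose and Clec4d fell. At an adjusted p under 0.05 by limma, 2 of 38 genes were higher in KO M1 than in KO M0 (5.26%, against 3.79% of all 20967 genes) and 5 were lower (13.2%, against 4.49%). In KO M2, 3 genes were higher (7.89%, against 4.5%) and 1 was lower (2.63%, against 3.06%). Between the stimuli, 4 genes were higher in KO M1 than in KO M2 (10.5%, against 6.36%) and 6 were lower (15.8%, against 9%). The median log2 change over the 38 genes was -0.02 in KO M1, -0.05 in KO M2 and 0.05 for KO M1 minus KO M2, and that of all genes was 0.05, 0 and 0.06. The 3 comparisons share arrays, so their counts are not independent of each other. 10 genes passed the test in at least 1 comparison and 28 in none. The matching share of all genes was not computed, so this count is a description without a background.

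**Figure D1:**
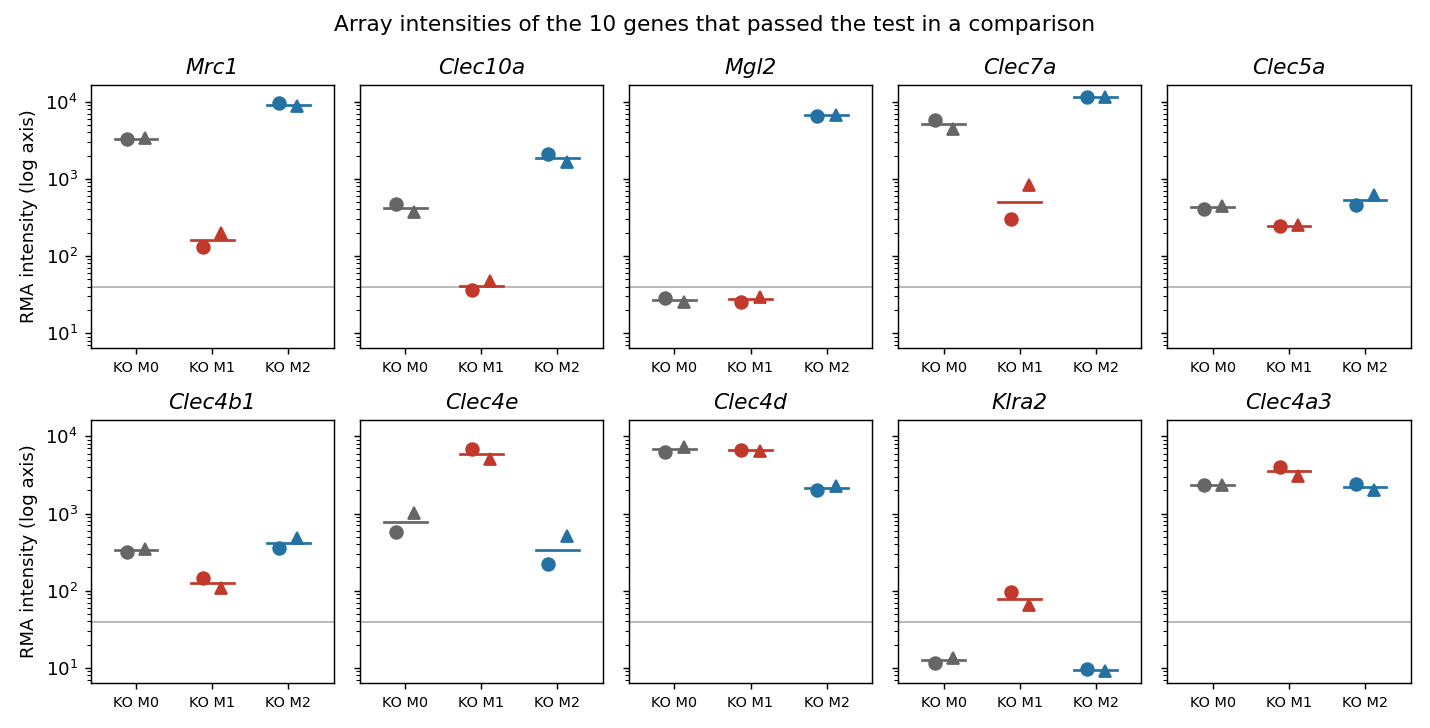
RMA intensity (log axis) on each array for the 10 genes that passed the test in a comparison, with circles for replicate 1, triangles for replicate 2, coloured bars for the geometric mean of each condition and a thin grey line for the array medians. Mgl2 and Klra2 are below the grey line in 2 of 3 conditions, while Clec7a shows its widest gap between replicates in KO M1 (300 and 831).

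The endocytic receptors of the rule number 14 genes. In KO M1 none passed the test as higher (against 3.79% of all genes) and 2 as lower (4.49%), while in KO M2 3 passed as higher (4.5%) and none as lower (3.06%). Mrc1 (CD206, probe set 1450430_at) is the mannose receptor, which takes up mannosylated glycoproteins and microbes. It read 3268 and 3368 without stimulus (replicate 1, then replicate 2, as throughout), 130 and 200 with LPS + IFN-γ, and 9583 and 8705 with IL-4. The 3 conditions did not overlap, and KO M0 stood between the stimulated conditions. The log2 change was -4.36 ± 0.19 (SE) in KO M1 (20.6-fold lower, adjusted p = 3.1e-05) and 1.46 ± 0.19 in KO M2 (2.75-fold higher, adjusted p = 0.0027), both by limma on all 6 arrays. Between the stimuli Mrc1 was 56.6-fold lower in KO M1 (log2 difference -5.82 ± 0.19, adjusted p = 1.3e-06). Leaving out each array in turn kept these calls, with KO M1 changes of -4.67 to -4.05.

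Clec10a (MGL1, CD301a, probe set 1419605_at) binds galactose-type sugars and is, as background, found on macrophages and dendritic cells. Its intensity was 474 and 369 without stimulus, 36.2 and 46.7 with LPS + IFN-γ, and 2110 and 1650 with IL-4. The order of conditions was the same as for Mrc1, and in KO M1 the readings came to the level of the median probe set. Clec10a changed by -3.35 ± 0.19 on the log2 scale in KO M1 (10.2-fold lower, adjusted p = 6.1e-05) and by 2.16 ± 0.19 in KO M2 (4.46-fold higher, adjusted p = 0.00039), and the stimuli differed 45.3-fold (adjusted p = 1.8e-06). Because the KO M1 readings are close to background, the size of the fall depends on the scale, and with an offset of 16 before log2 the differences were -2.92 from KO M0 and -5.04 from KO M2.

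Mgl2 (CD301b, probe set 1438467_at), the close relative and direct neighbour of Clec10a on chromosome 11, binds galactose and N-acetylgalactosamine. Its readings were 28.3 and 25.5 without stimulus, 25.5 and 29.2 with LPS + IFN-γ, and 6612 and 6739 with IL-4. Only the IL-4 arrays rose above the median probe set, and the other 4 lay between 25.5 and 29.2 (KO M1 minus KO M0 log2 difference 0.02, 95% interval -0.27 to 0.32). The log2 change in KO M2 was 7.96 ± 0.13 (249-fold, adjusted p = 6e-08), which has a background reading as its base. With an offset of 16 added before log2, the change was 7.29. So the 2 neighbouring MGL genes both rose under IL-4, whereas only Clec10a started from a level from which a fall in KO M1 could be read.

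The other 11 endocytic receptors passed no test. Ly75 (DEC-205, an uptake receptor of dendritic cells) read 5.48 to 9.04 over the 6 arrays and Mrc2 (Endo180, a collagen receptor) 24.9 to 38.9, both below the array medians. Mrc2 had a log2 difference of -0.45 ± 0.13 in KO M2 (adjusted p = 0.095), and its other probe set, 1421045_at, had 0.07 (adjusted p = 0.87). Of the 7 Cd209 genes, the mouse relatives of human DC-SIGN, Cd209a read 15.2 to 20.4 and Cd209f, the one with a mean above the median probe set, 43.2 and 48.8 without stimulus, 44.7 and 45.4 with LPS + IFN-γ, and 38.9 and 38.5 with IL-4. Clec4f, a receptor of Kupffer cells, read 52.3 and 49.4 without stimulus, 53.8 and 47.7 with LPS + IFN-γ, and 44.6 and 38.4 with IL-4, and Clec4g (LSECtin) 52.5 and 50.6, 43.6 and 47.4, and 46.2 and 47.6 in the same order.

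Among the 7 activating receptors, 1 rose and 3 fell in KO M1 (3.79% and 4.49% of all genes), and none rose and 1 fell in KO M2 (4.5% and 3.06%). Clec7a (Dectin-1, probe set 1420699_at), the receptor of fungal β-glucan whose promoter is printed above, read 5760 and 4466 without stimulus, 300 and 831 with LPS + IFN-γ, and 11514 and 11522 with IL-4. The conditions did not overlap, but the KO M1 arrays were 2.77-fold apart, the one gene of the 38 whose probe set of highest mean differed over 2-fold between replicates in that condition. In KO M1 the log2 change was -3.34 ± 0.38 (10.2-fold lower, adjusted p = 0.0014), -2.61 without KO M1 replicate 1 and -4.08 without replicate 2. The difference in KO M2, 1.18 ± 0.38 (95% interval 0.31 to 2.06), missed the threshold (adjusted p = 0.12) with a spread that includes the KO M1 arrays, and passed it without either of those arrays (adjusted p = 0.0015). KO M1 was 23.1-fold below KO M2 (adjusted p = 0.00013).

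Clec4e (Mincle, probe set 1420330_at), the receptor of mycobacterial cord factor, moved the other way. It read 576 and 1028 without stimulus, 6866 and 5156 with LPS + IFN-γ, and 224 and 508 with IL-4. Both KO M1 arrays were far above the rest, and both KO M2 arrays were below both KO M0 arrays. The log2 change was 2.95 ± 0.38 in KO M1 (7.73-fold higher, adjusted p = 0.0026) and -1.19 ± 0.38 in KO M2 (adjusted p = 0.12). With each array left out, the KO M2 change ranged from -1.78 to -0.60. Between the stimuli Clec4e differed 17.6-fold (adjusted p = 2e-04). A second probe set, 1420331_at, gave 134 and 275, 1934 and 1240, and 91.2 and 152 in the same order, and log2 changes of 3.01 (adjusted p = 0.0018) and -0.70 (adjusted p = 0.35).

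Clec4d (MCL, probe set 1420804_s_at) pairs with Mincle in the recognition of cord factor, and lies next to it on chromosome 6. Its readings were 6316 and 7353 without stimulus, 6748 and 6514 with LPS + IFN-γ, and 2011 and 2250 with IL-4. Under LPS + IFN-γ its log2 difference was -0.04 (95% interval -0.34 to 0.26, which leaves out the 2.95 of Clec4e), and under IL-4 both arrays lay below all others. The log2 change in KO M2 was -1.68 ± 0.13 (3.2-fold lower, adjusted p = 0.00021). The suffix of this probe set marks probes shared by several transcripts, so its signal may hold a related transcript.

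Clec4n (Dectin-2, probe set 1419627_s_at, with the same limit) binds fungal mannans and is the other neighbour of Clec4d. It read 2388 and 2314 without stimulus, 3288 and 1659 with LPS + IFN-γ, and 3955 and 4507 with IL-4. One replicate lay above and the other below the unstimulated level in KO M1 (log2 difference -0.01, 95% interval -0.62 to 0.61), while both KO M2 arrays were above all others. The difference of 0.84 ± 0.27 in KO M2 missed the threshold (adjusted p = 0.11) and passed it without either KO M1 array (adjusted p = 0.004). KO M1 minus KO M2 was -0.85 (adjusted p = 0.078), and ranged from -1.35 to -0.36 with each array left out. The second Clec4n probe set, 1425951_a_at, had differences of -0.23 in KO M1 and 0.67 in KO M2.

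Clec5a (MDL-1, probe set 1421366_at) signals through Tyrobp and is known as a receptor for dengue virus. It read 412 and 448 without stimulus, 245 and 250 with LPS + IFN-γ, and 458 and 608 with IL-4. KO M1 was below both other conditions without overlap, with a log2 change of -0.80 ± 0.15 (1.74-fold lower, adjusted p = 0.017) against KO M0. This call was lost without KO M0 replicate 1 (adjusted p = 0.1) or replicate 2 (0.14), and without KO M1 replicate 1 (0.053). The 2.13-fold difference from KO M2 (adjusted p = 0.002) held with each array left out.

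Clec4b1 (DCAR1, probe set 1421685_at), which pairs with Fcer1g, read 317 and 349 without stimulus, 144 and 107 with LPS + IFN-γ, and 358 and 481 with IL-4. Both KO M1 arrays were below the rest (log2 change -1.43 ± 0.19, 2.69-fold lower, adjusted p = 0.0029). In KO M2 the difference of 0.32 ± 0.19 missed the threshold (adjusted p = 0.42). Clec1b (CLEC-2, the podoplanin receptor of platelets) was low, between 15.9 and 22.3 on the 6 arrays.

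**Figure D2:**
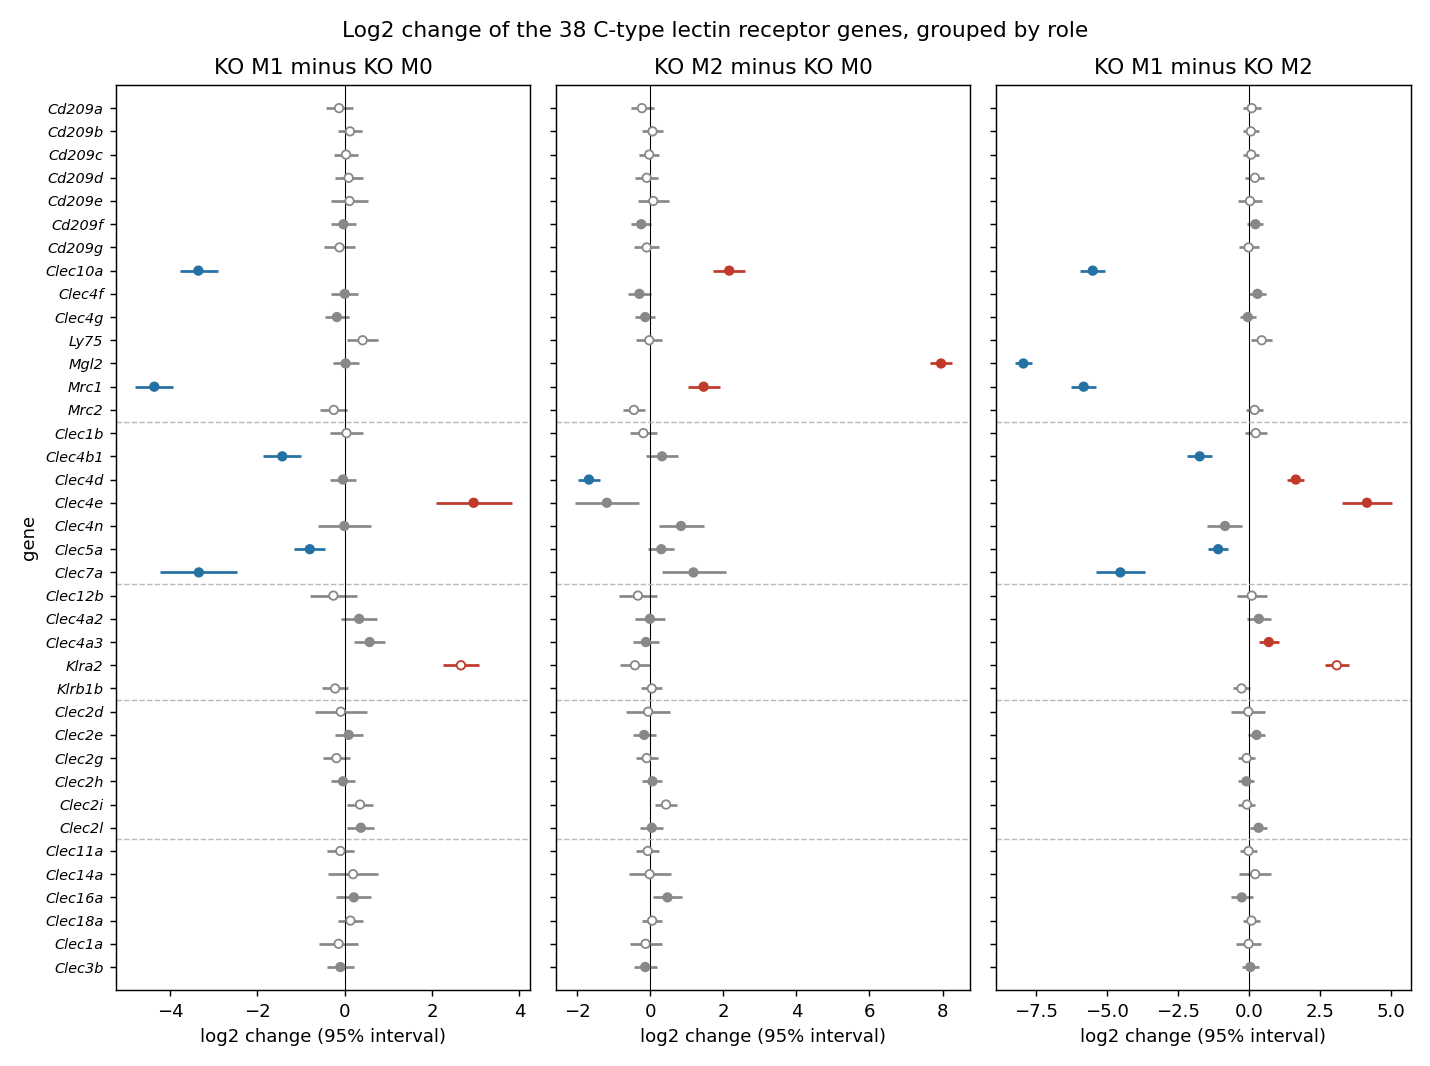
Log2 change with its 95% interval for the 38 genes in the 3 comparisons, in the order endocytic, activating, inhibitory, Clec2 and other genes, with dashed lines between these classes. Red marks genes that passed the test as higher, blue as lower and grey neither, and open circles have a mean intensity at or below the median probe set. The coloured points lie in the first 3 classes, and Klra2 is the open circle among them.

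The 5 genes grouped with the inhibitory receptors were Clec4a2, its relative Clec4a3, Clec12b, Klra2 and Klrb1b. In KO M1, 1 of them rose (against 3.79% of all genes) and none fell (4.49%). In KO M2 none passed the test as higher (4.5%) or lower (3.06%), and Klra2 had a log2 difference of -0.42 (95% interval -0.84 to 0). Klra2 (Ly49B, probe set 1421304_at) is a member of the Ly49 family that, unlike the NK cell members, is known from myeloid cells. It read 11.6 and 13.6 without stimulus, 95.6 and 65.3 with LPS + IFN-γ, and 9.59 and 9.13 with IL-4. It was above the median probe set on the KO M1 arrays and on no other. The log2 change was 2.66 ± 0.19 in KO M1 (6.31-fold, adjusted p = 0.00015), and 1.74 with an offset of 16, since its base is a background reading. KO M1 was 8.44-fold above KO M2 (log2 difference 3.08 ± 0.19, adjusted p = 2.3e-05, or 1.91 with the offset). The 7 NK cell markers summed to 197 to 220 on the 6 arrays and none of them passed the test in any comparison (Ncr1, which defines NK cells, read 31.2 to 43.1).

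Clec4a2 (DCIR, probe set 1422013_at), a receptor with an inhibitory motif, read 2592 and 3026 without stimulus, 4239 and 2916 with LPS + IFN-γ, and 2819 and 2733 with IL-4. The KO M0 range overlapped both others and no comparison passed (0.33 ± 0.18 in KO M1, adjusted p = 0.37, and -0.01 in KO M2). KO M1 minus KO M2 was 0.34 (adjusted p = 0.29), and ranged from 0.07 to 0.61 with each array left out. A second Clec4a2 probe set, 1425406_at, read 462 and 562 without stimulus and 800 and 639 with LPS + IFN-γ, with no overlap. It passed no test either (0.49 in KO M1, adjusted p = 0.13, and 0.22 in KO M2). For Clec4a3 (probe set 1429954_at) the readings were 2360 and 2370 without stimulus, 3975 and 3110 with LPS + IFN-γ, and 2382 and 2002 with IL-4. Both KO M1 arrays were the highest. The log2 difference of 0.57 ± 0.16 from KO M0 missed the threshold (adjusted p = 0.067), and ranged from 0.40 to 0.75 with each array left out. That of 0.69 ± 0.16 from KO M2 passed it (adjusted p = 0.021), with a range of 0.51 to 0.86. This call was lost without KO M1 replicate 1 or KO M2 replicate 2. Clec12b, with an inhibitory motif, read 9.74 to 17.3 on the 6 arrays and Klrb1b 8.34 to 10.9.

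The Clec2 genes, some of which encode Clr proteins that serve as ligands of NK cell receptors, and the 6 remaining genes passed no test. Clec2l read 110 and 118 without stimulus, 135 and 160 with LPS + IFN-γ, and 115 and 119 with IL-4, a log2 difference of 0.37 ± 0.13 in KO M1 (adjusted p = 0.16). Clec2e read 54 and 47.7 without stimulus, 50.7 and 58 with LPS + IFN-γ, and 47.8 and 42.7 with IL-4, and Clec2h 49.9 and 46, 45.6 and 47.2, and 48.2 and 51.6. Clec2e and Clec2h lay close to the array medians, and Clec2l lay above them. Clec16a, which despite its name is an autophagy gene and no receptor of sugars, read 103 and 98.6 without stimulus, 115 and 119 with LPS + IFN-γ, and 167 and 116 with IL-4. Its probe sets differed in sign in KO M2 (0.47 and -0.26), and the former passed only without KO M2 replicate 2 (0.73, adjusted p = 0.046). Clec3b (tetranectin, a secreted protein that binds plasminogen) read 97.6 and 107 without stimulus, 101 and 90.2 with LPS + IFN-γ, and 87.2 and 99.1 with IL-4. In all, 18 genes that passed no test had a mean intensity at or below the median probe set, read 5.48 to 48.7 on single arrays, and had log2 differences from -0.26 to 0.41 in KO M1 and from -0.45 to 0.43 in KO M2. At such intensities an expressed gene cannot be told from background, so these genes are not shown to be absent or unchanged.

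Of the 38 genes, 20 lie on chromosome 6, 9 on chromosome 8, 3 on chromosome 11, 2 on chromosome 2 and 1 each on chromosomes 7, 9, 12 and 16, by the RefSeq gene order of GRCm38.p6. Some neighbours on chromosome 6 differed in the comparison they passed. Clec4n, Clec4d and Clec4e follow each other with 0 other protein-coding genes between them, and had log2 changes of -0.01, -0.04 and 2.95 in KO M1 and of 0.84, -1.68 and -1.19 in KO M2, of which 2.95 and -1.68 passed the test. Clec4b1 (-1.43 in KO M1) and Clec4a2 (0.33) are neighbours too. Clec12b, Clec1b and Clec1a lie shortly before Clec7a and read below the median probe set, whereas Clec7a was well above it.

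**Figure D3:**
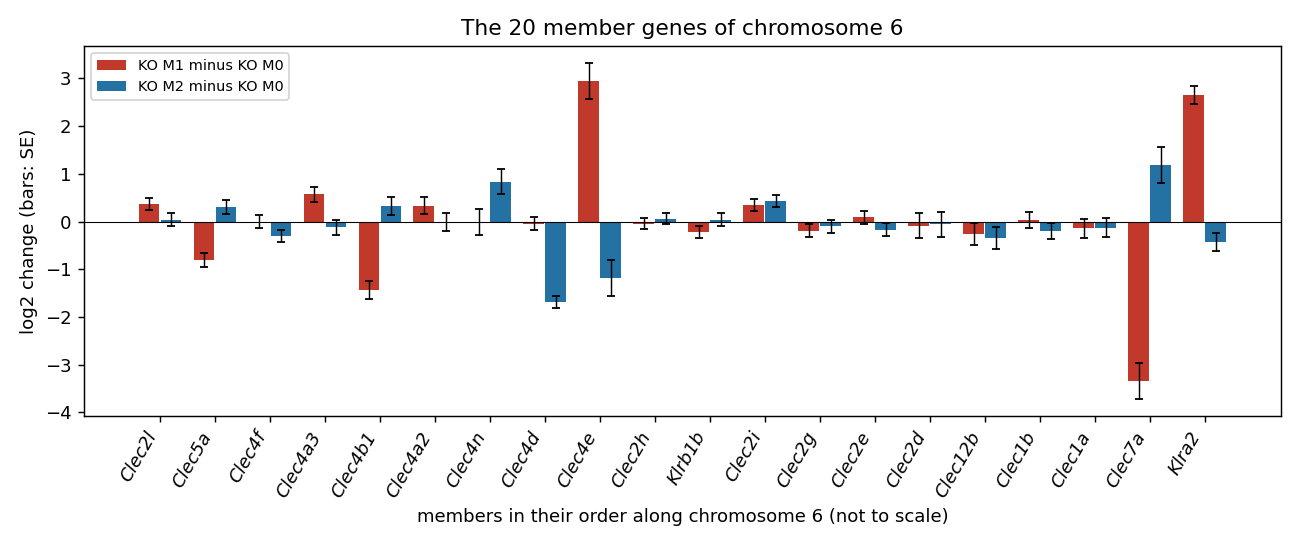
Log2 change from KO M0 (error bars, SE) for the 20 genes of chromosome 6 in their order along it, not to scale, with KO M1 in red and KO M2 in blue. The adjacent genes Clec4d (-0.04 and -1.68) and Clec4e (2.95 and -1.19) have bars of different size in KO M1, while both bars point down in KO M2, where that of Clec4e passed no test.

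The signalling partners of these receptors were read in 22 genes of a list of 24, all with a mean above the median probe set. Syk and Card9 are not among these 22 genes, so no value is given for them. Between the stimuli, 9 partners were higher in KO M1 than in KO M2 and 6 were lower, against 6.36% and 9% of all genes. The adaptors passed no test against KO M0, while Fcer1g was higher in KO M1 than in KO M2 (log2 difference 0.64, adjusted p = 0.01). Fcer1g read 12566 and 12318 without stimulus, 15865 and 14085 with LPS + IFN-γ, and 9935 and 9229 with IL-4, and Tyrobp 10794 to 13424 on the 6 arrays. In KO M1, 1 partner was higher, the kinase Src (0.69 ± 0.17, adjusted p = 0.048), and 2 were lower, the exchange factor Vav3 (-0.95) and the ubiquitin ligase Cblb (-0.58), against 3.79% of all genes higher and 4.49% lower. In KO M2, 6 were higher, namely Cblb (2.32), Src (1.79), the paracaspase Malt1 (1.65), the kinase Prkcd that links Syk to Card9 (1.46), and the NF-κB subunits Rel (1.39) and Nfkb1 (1.15), against 4.5% of all genes higher and 3.06% lower. The phosphatase Ptpn6 (SHP-1) was the 1 partner lower in KO M2, at 2142 and 2618 without stimulus, 3656 and 2133 with LPS + IFN-γ, and 1075 and 1079 with IL-4 (-1.14 ± 0.23, adjusted p = 0.022). Cblb, which is known to end Dectin signalling by degrading the receptors, read 318 and 324 without stimulus, 211 and 219 with LPS + IFN-γ, and 1568 and 1638 with IL-4, with no overlap between conditions. The median log2 change over the 22 partners was 0.31 in KO M1 and -0.14 in KO M2, against 0.05 and 0 for all genes.

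**Figure D4:**
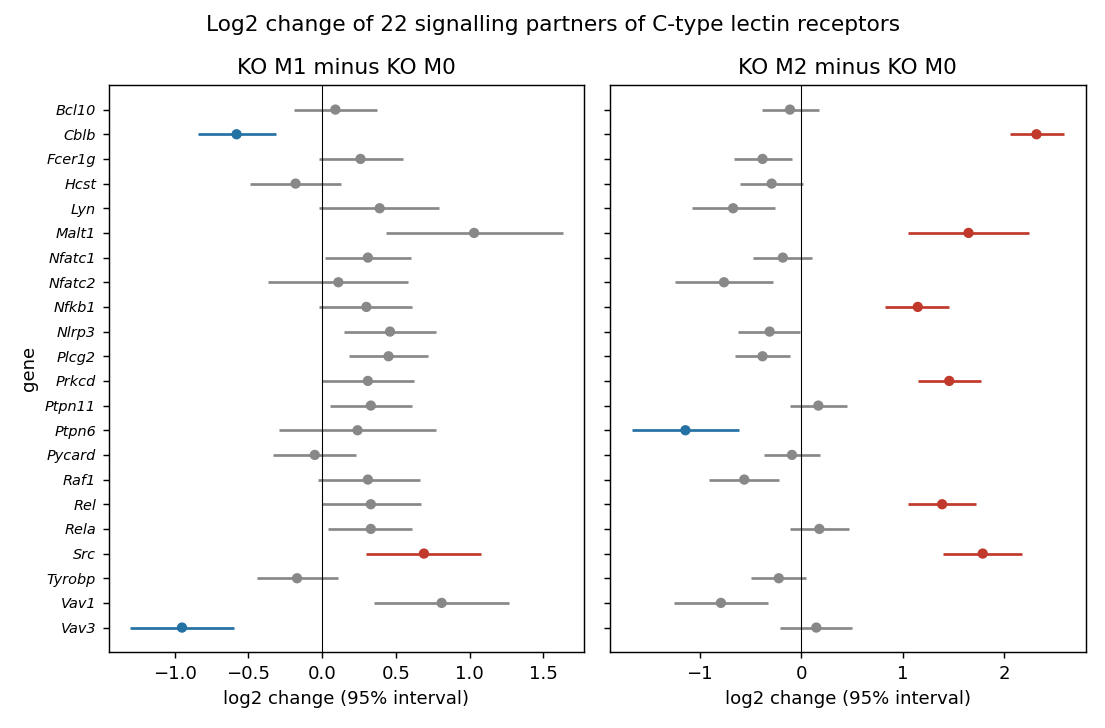
Log2 change from KO M0 with its 95% interval for 22 signalling partners of C-type lectin receptors (colours as in the plot of the 38 genes). Cblb lies at -0.58 in KO M1 and 2.32 in KO M2, and the adaptors Fcer1g and Tyrobp are grey in both panels.

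Markers of other cells were read because Clec10a, Mgl2, Ly75 and the Cd209 genes are also known from dendritic cells. Dendritic cell markers (8 genes) summed to 516 and 494 without stimulus, 515 and 521 with LPS + IFN-γ, and 1226 and 1397 with IL-4. The median log2 change of these 8 genes in KO M2 was -0.03, and nearly all of the rise in the sum was Batf3. Within the list, 2 genes rose in KO M2. Batf3 did so from 149 and 135 to 839 and 1027 (2.71 ± 0.15, adjusted p = 3.3e-05) and Zbtb46 from 58.4 and 58.1 to 91.7 and 78.4 (0.54, adjusted p = 0.039). In KO M1 Ccr7 went from 25.4 and 25 to 33.6 and 43.1 (0.59, adjusted p = 0.047). Its mean lay below the median probe set, so this difference is close to background. Flt3, the defining receptor of dendritic cells, read 82.9 to 95.7 and Xcr1 10.2 to 14 on the 6 arrays, and neither passed a test. Platelet markers (5 genes) summed to 5960 and 5237 without stimulus, 1534 and 3832 with LPS + IFN-γ, and 5810 and 4353 with IL-4, nearly all of it Pf4, which read 1252 in replicate 1 and 3514 in replicate 2 of KO M1, low in the same array as Clec7a. Ppbp, a platelet chemokine, read 42.1 and 36.6 without stimulus, 11.7 and 36.9 with LPS + IFN-γ, and 322 and 180 with IL-4, and was the 1 gene of this list that rose in KO M2 (2.62, adjusted p = 0.013). Platelet-defining Itga2b was at 103 to 130 and Gp9 at 78.6 to 110. Neutrophil markers summed to 390 to 610, B cell markers to 189 to 286 and fibroblast markers to 170 to 497 on the 6 arrays. Against KO M0, 1 gene of these 3 lists passed, fibroblast Dcn in KO M1 (33.4 and 22.2 without stimulus, 75.8 and 44.7 with it, 1.09, adjusted p = 0.042). Higher in KO M1 than in KO M2 were Dcn (0.95, adjusted p = 0.048), neutrophil Camp (0.71, adjusted p = 0.025) and B cell Cd79b (0.61, adjusted p = 0.04). The part of other cells in the receptor values was not tested.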

How the data were processed

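Per the labels and methods, the authors hybridised total RNA of the 6 cultures to Affymetrix mouse arrays, normalized them with RMA in GenePattern and deposited linear intensities in 2 tables that differ by at most 5e-06. RMA's version, and any further arrays in that normalization, were not given in the sources used here. Class means and the columns of fold and p-value that the authors deposited beside them were not used. Of 45101 probe sets, 64 controls were left out. By the authors' annotation 38544 carried 1 symbol, 859 several and 5634 none. Log2 intensities of all 6 arrays were fitted with limma 3.58.1 in R 4.3.3 (lmFit, eBayes, 3 residual and 5.49 prior degrees of freedom), two-sided, with Benjamini-Hochberg adjustment over 45037 probe sets. The probe set of highest mean stood for its gene, which was called at an adjusted p under 0.05. Arrays are given for every gene called or above the median intensity, and others by range. The fit was tested on simulated data. The genes, lists and motifs were chosen with earlier results of these data known. Alternatives were the replicate number as a block, single comparisons, a trend, an offset, a filter, all probe sets and centring. Others were the second deposited table, each array left out and the methods' t-test.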

Additional observations from a re-analysis of the deposited data

How the results depend on the processing

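Equal replicate numbers were not stated to be 1 animal, and their deviations from the condition means correlated at -0.162 (KO M1 and KO M0), 0.209 (KO M2 and KO M0) and -0.215 (KO M1 and KO M2), so a pairing was not assumed. With the replicate number as a block the numbers of genes called did not move (2 higher and 5 lower in KO M1, 3 and 1 in KO M2, 4 and 6 for KO M1 against KO M2), and the block changed no other call of the named genes. With each array left out, when its condition keeps 1 array that is assumed to vary like the others, the numbers were 2 to 3 higher and 4 to 5 lower in KO M1, 3 to 5 and 1 to 2 in KO M2, and 3 to 5 and 6 to 7 between the stimuli. The 5 in KO M2, also found with only the 4 arrays compared, add Clec7a and Clec4n, and the 2 lower in KO M2 add Clec4e. Using only probe sets above the median intensity left 1 gene higher in KO M1, since Klra2 is below it. The methods' t-test, with equal SD, gave 4 higher in KO M1 and 5 higher in KO M2 without adjustment, kept 19 of 21 calls, and gave 0 in every comparison after Benjamini-Hochberg. Under the alternatives other than this t-test, called genes that were tested kept call and direction, except Clec5a and Clec4a3 without single arrays. These alternatives are not separate checks. The second deposited table holds nearly the same values, and averaging probe sets changes the values only of genes with several. Leaving out an array of the third condition gives the same fit as only the 4 arrays compared.

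Signs turned only for differences near 0 that passed no test. In KO M1 against KO M0, Clec4d ranged from -0.15 to 0.07 with each array left out, Mgl2 from -0.07 to 0.12 and Clec4n from -0.50 to 0.48, and Clec4n was 0.07 in the t-test. In KO M2 against KO M0, Clec4a3 ranged from -0.24 to 0.01 and Clec4a2 from -0.12 to 0.10 with each array left out, and Clec4a2 was 0.05 with arrays centred on their medians and 0.10 with all its probe sets averaged. The cause was not tested. Signals below the median probe set limit what can be read for 17 genes that stay at or below it on every array, and for Mgl2 and Klra2 in 2 of 3 conditions.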

Other observations

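Lectins of other families were read in 16 genes of a list of 17. The galectins Lgals1 and Lgals3, soluble proteins that bind galactosides, fell in KO M1. Lgals1 went from 14637 and 14085 in KO M0 to 7208 and 8306 in KO M1 (log2 change -0.89 ± 0.13, adjusted p = 0.0038) and Lgals3 from 18866 and 18570 to 10934 and 12373 (-0.69 ± 0.12, adjusted p = 0.012), with no overlap. Lgals9 and the galectin-3 binding protein Lgals3bp instead fell in KO M2. Lgals9 read 3670 and 3735 without stimulus, 6179 and 3967 with LPS + IFN-γ, and 1041 and 1210 with IL-4 (-1.72 ± 0.20 in KO M2, adjusted p = 0.0015).

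Siglecs, which bind sialic acid and mostly carry inhibitory motifs, rose in KO M1 in 3 cases. Siglece read 45.5 and 57.5 without stimulus, 202 and 174 with LPS + IFN-γ, and 28.1 and 38.1 with IL-4 (1.88 ± 0.18 in KO M1, adjusted p = 0.00067). Cd33 rose by 0.85 (adjusted p = 0.0068) and Mag by 1.03 (adjusted p = 0.0043), both on the log2 scale. Siglec1 (sialoadhesin), an interferon-induced receptor of macrophages, read 94.8 to 133 on the 6 arrays and passed no test. By limma, 3 of the 16 rose and 2 fell with LPS + IFN-γ, while 0 rose and 2 fell with IL-4, against 3.79% and 4.49% of all genes under the first stimulus and 4.5% and 3.06% under the other.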
